A study of Homo sapiens with 6 samples.

Results

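The BCL2 family decides at the mitochondrial outer membrane whether a cell under stress dies by apoptosis. Described here are 10 of its genes in SW403, an established human colon adenocarcinoma line, with and without knockdown of IRS2, the gene of an adaptor that links insulin and IGF1 receptors to PI3K and AKT. The members were taken by gene symbol from a list of 3 anti-death genes (BCL2, BCL2L1, MCL1), 1 effector (BAK1) and 6 BH3-only genes (BCL2L11, BID, BAD, BIK, BMF, PMAIP1). All 10 were among the 26490 symbols of the count table, and all 10 were among the 13832 genes with enough reads to be tested. RNA-seq libraries were made from 3 control cultures, labelled WT, and 3 IRS2 knockdown cultures of the same line. Both groups were grown for 24 h in DMEM with 10% fetal bovine serum and received no treatment. The labels disagree on the manipulation: titles and genotype call it a knockdown, while the descriptions read IRS2KO, against NS for the controls. Knockdown is used here as the name of the group. How IRS2 was lowered is not stated. The titles number the cultures as biological replicates, without saying whether those of a group derive from 1 clone or from separately made lines, so p-values measure only the spread between these cultures.

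Anti-death proteins hold the pore-forming effectors BAX and BAK in check, and BH3-only proteins release them, either by occupying the anti-death proteins or by engaging the effectors directly. Signalling through IRS proteins and AKT is a textbook survival input to this switch: AKT phosphorylates BAD, and it keeps the FOXO factors, which can activate BCL2L11 and BMF, out of the nucleus. Much of this control acts on proteins, which RNA-seq does not measure. In bulk RNA, fewer cells expressing a gene and less of its RNA per cell cannot be told apart.

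Of the 10 members, 3 passed the threshold of 0.05 on the p-value of the edgeR quasi-likelihood test, adjusted by Benjamini-Hochberg over all tested genes. BIK and BCL2L11 were higher in knockdown and PMAIP1 was lower. All 3 are BH3-only genes, the role of 6 of the 10 members. None of the 3 anti-death genes passed, and neither did the effector. With so few genes per role, the roles were not compared by a test. Across all tested genes 38.5% passed, 19.3% higher and 19.2% lower, so 3 of 10 is near the share of genes at large. The differences were small: the median absolute log2 fold change of the 10 was 0.16, against 0.14 over all tested genes. No member changed 2-fold, where 4.98% of all tested genes did, and the 95% intervals of all 10 lay within a 1.54-fold change in either direction.

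For the called genes with an upstream sequence in the RefSeq table (build GRCh38.p14), the 250 bases before the annotated start are given, because the genes of factors known to act on them are described further on. That table held 15 windows for 8 of the 10 members; BIK and MCL1 were not among them. BCL2L11 (chr2:111120664-111120913, plus strand) carries a match to the forkhead motif GTAAACA, in capitals. PMAIP1 (chr18:59899746-59899995, plus strand) carries the reverse complement of the cyclic AMP response half-site TGACG, in capitals.

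BCL2L11: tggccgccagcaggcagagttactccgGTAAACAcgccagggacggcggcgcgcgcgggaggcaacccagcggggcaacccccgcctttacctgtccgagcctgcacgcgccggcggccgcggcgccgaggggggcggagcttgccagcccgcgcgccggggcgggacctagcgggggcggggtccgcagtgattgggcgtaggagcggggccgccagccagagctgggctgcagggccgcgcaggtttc

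PMAIP1: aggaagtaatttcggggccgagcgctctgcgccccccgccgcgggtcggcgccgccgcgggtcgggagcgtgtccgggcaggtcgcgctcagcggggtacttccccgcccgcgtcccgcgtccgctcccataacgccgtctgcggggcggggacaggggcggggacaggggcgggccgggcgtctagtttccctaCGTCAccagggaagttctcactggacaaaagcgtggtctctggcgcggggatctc

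The motifs were searched on both strands and do not overlap each other. The forkhead match lies at -223 to -217 relative to the start of BCL2L11, and it was found in 2.98% of the 35116 windows of this length in the table. No other member with a window held it. The half-site in PMAIP1 lies at -55 to -51. TGACG is common, being present in 21.2% of all windows. Among the members with a window it was found for 5 (BAD, BCL2, BCL2L1, BMF and PMAIP1). Both shares count windows while members are counted as genes, and a gene can have several windows, so they are not directly comparable. These matches describe the letters only; they do not show that a factor binds there.

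Before the members were compared, the libraries and the targeted gene were checked. Libraries held 11816973 to 12585013 counts in control and 14329348 to 18114656 in knockdown, so each knockdown library was the deeper. Levels are given as CPM, counts scaled to library size with TMM factors, which ran from 0.984 to 1.01. IRS2 had 32.1, 34.6 and 31.8 CPM in control replicates 1 to 3 and 13.1, 12.4 and 12.1 CPM in knockdown replicates 1 to 3, a log2 fold change of -1.39 ± 0.07 (SE; edgeR adjusted p 3.12e-11). Of 11 colon epithelial markers, 6 exceeded 1 CPM in every library (EPCAM, KRT8, KRT18, KRT19, CDX2, VIL1), while KRT20 and CDX1 had no read and CDH1 had 15 reads in all libraries together. Summed fibroblast markers were at 8.85 to 27.3 CPM in the controls and 5.86 to 7.41 CPM in the knockdown libraries, immune markers at 1.66 to 3.01 and 2.72 to 2.95 CPM, and endothelial markers at 0.334 to 0.871 and 0.563 to 0.673 CPM. Mitochondrially encoded protein genes took 5.28% to 5.58% of the counts in control and 5.78% to 5.81% in knockdown; the part of these differences in the results was not tested.

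**Figure D1:**
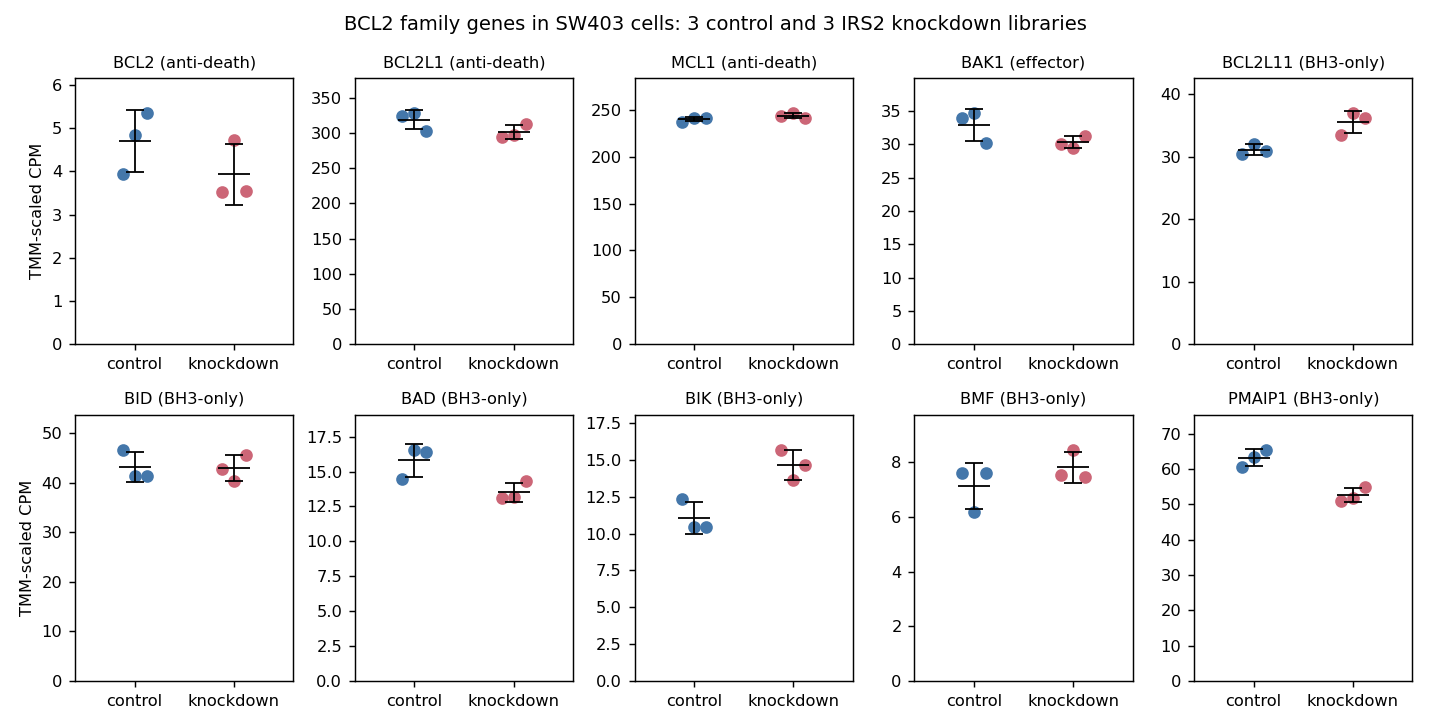
TMM-scaled CPM (vertical axes, starting at 0) of the 10 BCL2 family genes in each library. Points are the 3 libraries of a group, and the black marks give the mean and SD. The groups do not overlap for BCL2L11, BAD, BIK and PMAIP1, and they overlap for the other 6 genes.

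BIK showed the largest rise among the members. BIK encodes a BH3-only protein of the endoplasmic reticulum membrane that binds BCL2 and BCL-XL; the gene lies on chromosome 22 (GRCh37, 43506756 to 43525718, 5 exons in the canonical transcript). It had 12.3, 10.5 and 10.4 CPM in control replicates 1 to 3 and 15.7, 13.6 and 14.6 CPM in knockdown replicates 1 to 3. Every knockdown library was above every control library, and knockdown replicate 2 and control replicate 1 lay closest. The log2 fold change was 0.40 ± 0.10 (SE), a rise of 31.7% with a 95% interval of 14.4% to 51.6% (edgeR adjusted p 0.00300). BIK passed the threshold under all 18 alternative settings, with log2 fold changes from 0.35 to 0.48.

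BCL2L11 rose by less. It encodes BIM, a BH3-only protein that binds all anti-death members and is a classic FOXO target; the gene lies on chromosome 2 (GRCh37, 111876955 to 111926021, 4 exons in the canonical transcript). Control replicates 1 to 3 had 30.4, 32.1 and 30.9 CPM, and knockdown replicates 1 to 3 had 33.5, 37.0 and 36.1 CPM. The groups did not overlap, with knockdown replicate 1 closest to the control values. The log2 fold change was 0.19 ± 0.06 (SE), a rise of 14.4% with a 95% interval of 5.00% to 24.7% (edgeR adjusted p 0.0137). This call was lost in the Wald test of DESeq2 (log2 fold change 0.20, adjusted p 0.0988), and in edgeR without control replicate 1 (adjusted p 0.0518) or without knockdown replicate 2 (adjusted p 0.0726). MIR4435-2HG, a long noncoding gene on the opposite strand whose exons overlap those of BCL2L11, had a control level of 74.0 ± 3.78 CPM and a knockdown level of 76.5 ± 1.52 CPM (SD of 3 libraries; log2 fold change 0.047, edgeR adjusted p 0.458). How reads in the shared exons were assigned is not given in the sources used here, so the level of BCL2L11 is uncertain to that extent.

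PMAIP1 moved the other way and had the smallest p-value of the 10. It encodes NOXA, a BH3-only protein that binds MCL1 in preference to other anti-death proteins; the gene lies on chromosome 18 (GRCh37, 57567228 to 57571537, 2 exons). It had 60.6, 63.5 and 65.4 CPM in control replicates 1 to 3 against 50.9, 51.8 and 54.8 CPM in knockdown replicates 1 to 3. The highest knockdown library was below the lowest control library. The log2 fold change was -0.26 ± 0.05 (SE), a change of -16.7% with a 95% interval of -22.4% to -10.6% (edgeR adjusted p 0.000272). PMAIP1 passed under all 18 alternative settings, with log2 fold changes from -0.30 to -0.23.

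BAD fell just outside the threshold. Its product is the BH3-only protein that AKT phosphorylates and that 14-3-3 proteins then sequester. BAD had 14.5, 16.6 and 16.4 CPM in control replicates 1 to 3 and 13.1, 13.2 and 14.3 CPM in knockdown replicates 1 to 3, so the groups were separated by the narrow gap between control replicate 1 and knockdown replicate 3. The log2 fold change was -0.22 ± 0.09 (SE), with a 95% interval of -24.3% to -2.61% (edgeR adjusted p 0.0523). Without control replicate 1 it passed (-0.28, edgeR adjusted p 0.0261), as it did without knockdown replicate 3 (-0.26, edgeR adjusted p 0.0367), with library size alone as the scaling (edgeR adjusted p 0.0276) and when genes averaging under 50 counts were dropped (edgeR adjusted p 0.0390). GPR137, which overlaps exons of BAD on the opposite strand, had a control level of 37.9 ± 2.64 CPM and a knockdown level of 32.7 ± 3.05 CPM (SD of 3 libraries; log2 fold change -0.21, edgeR adjusted p 0.0246); its part in the BAD values was not tested.

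The other BH3-only genes, BID and BMF, showed no difference past the threshold. BID, which caspase-8 cleaves to carry a death receptor signal to mitochondria, had 46.7, 41.4 and 41.3 CPM in control replicates 1 to 3 and 42.9, 40.5 and 45.6 CPM in knockdown replicates 1 to 3. The groups overlapped, with control replicate 1 above every knockdown library and knockdown replicate 2 below every control library, and the interval of the difference ran from -8.76% to 8.81% (edgeR adjusted p 0.958). BMF, a BH3-only protein linked to death on loss of attachment, had 7.63, 6.18 and 7.60 CPM in control replicates 1 to 3 and 7.53, 8.46 and 7.46 CPM in knockdown replicates 1 to 3. BMF-AS1, not analysed here, overlaps its exons. With 78 to 143 counts per library, its interval was wide, from -8.71% to 31.8% (log2 fold change 0.13 ± 0.13 SE, edgeR adjusted p 0.440). Without control replicate 2 the log2 fold change of BMF was 0.043, without knockdown replicate 2 it was 0.071, and no alternative made it pass.

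Among the anti-death genes, BCL2L1 was the most abundant. BCL2L1 encodes BCL-XL, and it had 325, 328 and 304 CPM in control replicates 1 to 3 and 295, 297 and 313 CPM in knockdown replicates 1 to 3. Control replicate 3 lay among the knockdown values, so the groups overlapped. The log2 fold change was -0.080 ± 0.036 (SE; edgeR adjusted p 0.0842), with a 95% interval of -10.2% to -0.374%. The value passed without control replicate 3 (-0.11, edgeR adjusted p 0.0238), without knockdown replicate 3 (-0.11, edgeR adjusted p 0.0163), with library size alone as the scaling (-0.11, edgeR adjusted p 0.0147), when genes averaging under 50 counts were dropped (-0.093, edgeR adjusted p 0.0410), and once transcript length and GC content were corrected for (-0.11, edgeR adjusted p 0.00300). ABALON, a long noncoding gene on the opposite strand that overlaps its exons, had 121 to 189 counts per library.

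MCL1 showed the narrowest relative spread of the members. MCL1 is a short-lived anti-death protein, and its RNA was at 237, 242 and 241 CPM in control replicates 1 to 3 and 243, 246 and 242 CPM in knockdown replicates 1 to 3. These values differed by less than the test could call, with an interval of -2.93% to 6.16% (log2 fold change 0.022 ± 0.031 SE, edgeR adjusted p 0.622). ADAMTSL4 and ADAMTSL4-AS1, which overlap exons of MCL1, had at most 10 counts in any library. BCL2 itself was scarce, with 50 to 80 counts per library. It had 3.93, 4.83 and 5.35 CPM in control replicates 1 to 3 and 3.52, 4.73 and 3.54 CPM in knockdown replicates 1 to 3, and its interval of -35.1% to 8.54% was the least precise of the 3 anti-death genes (log2 fold change -0.25 ± 0.18 SE, edgeR adjusted p 0.283). Leaving out single libraries took the log2 fold change of BCL2 from -0.41 (without knockdown replicate 2) to -0.15 (without control replicate 3), and no alternative made it pass.

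BAK1, the gene of the effector BAK, had 34.0, 34.7 and 30.2 CPM in control replicates 1 to 3 and 30.1, 29.5 and 31.3 CPM in knockdown replicates 1 to 3. Control replicate 3 again lay among the knockdown values. The log2 fold change was -0.12 ± 0.06 (SE; edgeR adjusted p 0.141), with a 95% interval of -16.1% to 0.755%, and it passed without control replicate 3 (-0.17, edgeR adjusted p 0.0445) and after the length and GC correction (-0.15, edgeR adjusted p 0.0448). Over 636 bases, the annotated pseudogene BAK1P1 matches the BAK1 transcript at 98.3% and BAK1P2 at 92.3%, so BAK1 reads may be shared with these copies.

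Counted another way, control and knockdown libraries were fully separated for 4 of 10 members, BIK and BCL2L11 with knockdown higher and BAD and PMAIP1 with knockdown lower. Over all tested genes the groups did not overlap for 47.6%, with knockdown higher for 23.7% and lower for 23.9%.

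**Figure D2:**
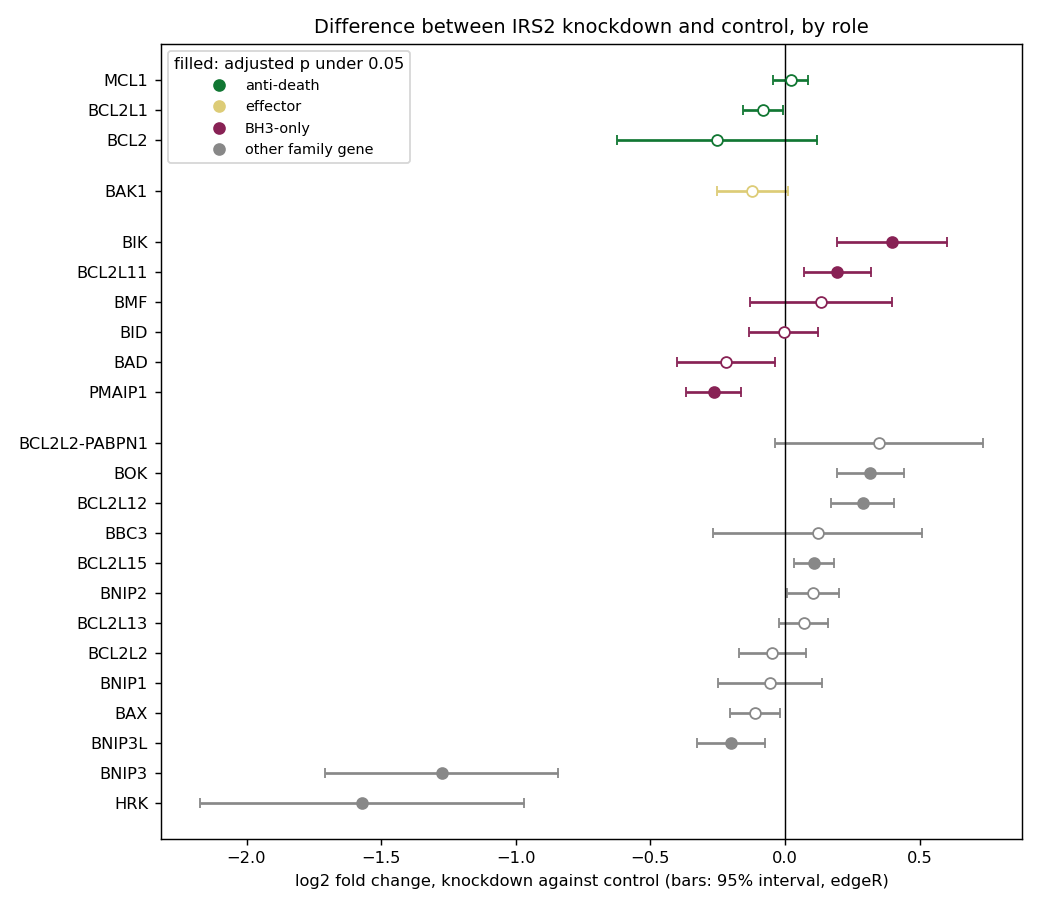
Log2 fold change of knockdown against control (horizontal axis) with its 95% interval for the 10 members, by role, and for the 13 other BCL2 family genes that were tested. Filled points passed the threshold; among the members these are BIK, BCL2L11 and PMAIP1.

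Levels were compared between genes only per length, as CPM per kilobase of the canonical transcript. The counts are per gene and do not show which transcripts these cells express. The order, shares and ratios of levels therefore depend on this choice of length. In control libraries the order was led by BCL2L1 at 123.9 ± 5.22 and MCL1 at 60.8 ± 0.627, followed by PMAIP1 at 33.3 ± 1.27, BID at 19.8 ± 1.41, BAD at 17.01 ± 1.25, BAK1 at 15.2 ± 1.10 and BIK at 11.65 ± 1.15005 CPM per kilobase (SD of 3 libraries). BCL2L11 stood at 6.11 ± 0.167, BMF at 1.52 ± 0.177 and BCL2 at 0.684 ± 0.104 CPM per kilobase (SD of 3 libraries). Only BAD and BAK1 were neighbours whose control libraries overlapped. In knockdown, BIK stood at 15.4 ± 1.09 CPM per kilobase, ahead of BAD at 14.6 ± 0.731 and BAK1 at 14.0 ± 0.421 (SD of 3 libraries); BIK overlapped BAD there, and BAD overlapped BAK1. The order of the other 7 genes was the same in both groups. BCL2L1 provided 65.6% to 67.6% of the summed anti-death level in control and 64.6% to 66.4% in knockdown libraries, and BCL2 under 1% in each.

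**Figure D3:**
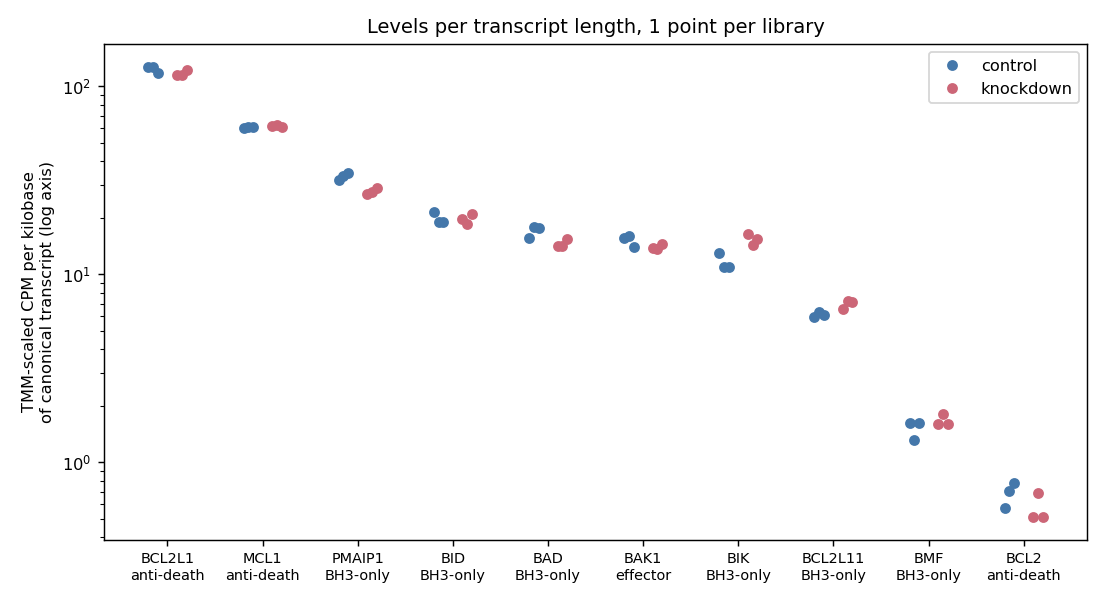
CPM per kilobase of canonical transcript (log axis) for the 10 members, ordered by their control mean, with 1 point per library. BCL2L1 and MCL1 lie above the other members in every library, BCL2 is the lowest, and BIK moves from below BAK1 in control to the level of BAD and BAK1 in knockdown.

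The 2 sides of the family were then set against each other within each library, where a ratio does not depend on scaling between libraries. The summed level per kilobase of the 3 anti-death genes, divided by that of BAK1 and the 6 BH3-only genes, was 1.78, 1.81 and 1.73 in control replicates 1 to 3 and 1.78, 1.84 and 1.77 in knockdown replicates 1 to 3. The groups overlapped, at 1.77 ± 0.0363 and 1.80 ± 0.0369 (SD of 3 libraries). The divisor holds only the listed members and leaves out BAX, the other main effector. BAX stood at 128.6 ± 6.01 CPM per kilobase in control and 119.1 ± 5.08 in knockdown (SD of 3 libraries). The ratio therefore describes the listed members and not the whole family. Of 3 ratios of single genes computed within the libraries, 1 overlapped between the groups and the other two did not. The ratio of BCL2L1 to BAK1 was 8.06, 7.98 and 8.46 in control replicates 1 to 3 and 8.25, 8.47 and 8.44 in knockdown replicates 1 to 3, so the groups overlapped. The ratio of MCL1 to PMAIP1, whose products bind each other, was 1.88, 1.83 and 1.77 in control replicates 1 to 3 and 2.29, 2.29 and 2.12 in knockdown replicates 1 to 3, so every knockdown library was higher. The ratio of BCL2L1 to BCL2L11 was 21.1, 20.3 and 19.5 in control replicates 1 to 3 and 17.4, 15.9 and 17.2 in knockdown replicates 1 to 3, so every knockdown library was lower. These ratios combine members already described and were chosen after their values were seen, and they carry no test.

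The genes whose profiles over the 6 libraries lay nearest to the most clearly changed members were found among 10448 tested genes averaging at least 100 counts, by root mean square distance of centred log2 CPM. FCHSD1 (0.044), ASTN2 (0.046) and MIR22HG (0.046) lay nearest to BIK. ELOC (0.015), RAB21 (0.019) and JUP (0.019) lay nearest to PMAIP1. The distance is a description of these libraries.

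In the wider BCL2 family, HRK and BNIP3 changed more than any of the 10 members, but they averaged only 17.5 and 47.2 counts. Among all called genes averaging under 50 counts, the median absolute log2 fold change was 1.35. No member averaged so few counts. Of 16 further family genes, 13 were tested, of which 3 were higher, 3 lower and 7 did not pass. Over all tested genes 38.5% passed, 19.3% higher and 19.2% lower. The median log2 fold change of the 13 was 0.070, against -0.0039 over all tested genes. HRK, a BH3-only gene best known from neurons, fell from 22, 24 and 27 counts in control replicates 1 to 3 to 8, 12 and 12 counts in the deeper knockdown libraries (log2 fold change -1.57 ± 0.29 SE, edgeR adjusted p 0.000242). BNIP3, a mitophagy receptor gene induced by hypoxia, fell from 4.92 ± 0.625 to 2.05 ± 0.516 CPM (SD of 3 libraries; log2 fold change -1.28 ± 0.21 SE, edgeR adjusted p 6.70e-05). Its relative BNIP3L fell from 34.2 ± 1.06 to 29.7 ± 1.46 CPM (SD of 3 libraries; edgeR adjusted p 0.0126), a call lost without knockdown replicate 1 (edgeR adjusted p 0.0530) and in the DESeq2 Wald test (adjusted p 0.124).

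Of the genes that rose, BOK, an effector-like relative of BAX and BAK, went from 28.9 ± 1.31 to 36.1 ± 1.14 CPM (SD of 3 libraries; log2 fold change 0.32 ± 0.06 SE, edgeR adjusted p 0.000291). BCL2L12, an atypical family gene, went from 63.2 ± 5.75 to 77.2 ± 3.56 CPM (SD of 3 libraries; edgeR adjusted p 0.000432). BCL2L15 differed least, at 121 ± 0.753 and 130.6 ± 0.714 CPM (SD of 3 libraries; edgeR adjusted p 0.0198), and its call was lost in edgeR without control replicate 1 (adjusted p 0.0536), control replicate 2 (0.0547) or knockdown replicate 2 (0.0740), with library size alone (0.0857), and in the DESeq2 Wald test (0.0640).

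BAX, the other main effector, had 107, 101 and 98.0 CPM in control replicates 1 to 3 and 96.8, 89.998 and 97.2 CPM in knockdown replicates 1 to 3, a log2 fold change of -0.11 ± 0.04 (SE; edgeR adjusted p 0.0551). It passed without control replicate 3 (edgeR adjusted p 0.0374) and without knockdown replicate 3 (0.0336), with library size alone (0.0164), when genes averaging under 50 counts were dropped (0.0309) and after the length and GC correction (0.0248). BCL2L2 (-0.046), BCL2L13 (0.070), BNIP1 (-0.055) and BBC3 (0.12), the gene of the p53-induced BH3-only protein PUMA, had log2 fold changes that did not pass. BNIP2 (0.10, edgeR adjusted p 0.0826) did not pass either, but it did without a low-count filter (0.0494), after the length and GC correction (0.0141, and 0.0232 with the replicate block) and without control replicate 2 (0.0485). The read-through BCL2L2-PABPN1 (0.35, edgeR adjusted p 0.146), which shares sequence with BCL2L2, passed without a low-count filter (0.0374) and without control replicate 1 (log2 fold change 0.56, edgeR adjusted p 0.0455), while its log2 fold change was 0.14 without control replicate 2. BCL2A1 had no read in any library, BCL2L10 had 1 read and BCL2L14 had 5 in all.

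**Figure D4:**
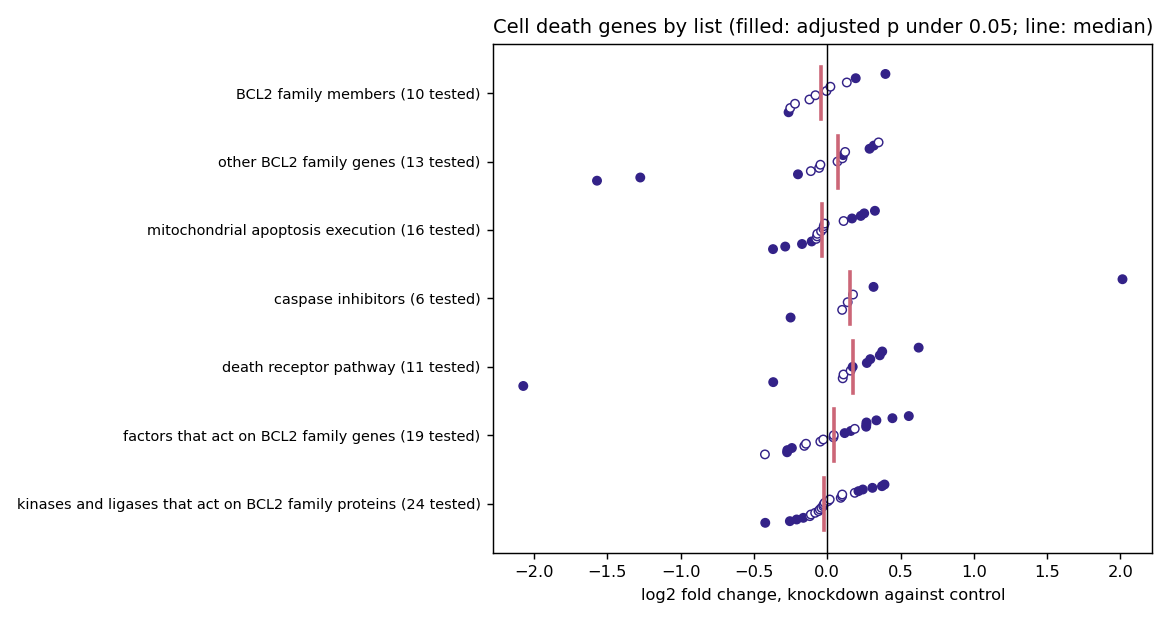
Log2 fold change of knockdown against control (horizontal axis) for each tested gene of 7 lists of cell death genes. Filled points passed the threshold and the line marks each list's median; the 10 members lie between -0.26 and 0.40, while BIRC3 lies at 2.01 and CASP10 at -2.07.

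Downstream of the family, released cytochrome c assembles the apoptosome and activates caspases. Of 16 genes listed for mitochondrial apoptosis execution, 4 were higher, 4 lower and 8 did not pass. Their median log2 fold change was -0.034. The list is wider than this step and includes outer membrane genes such as VDAC1. Over all tested genes 19.3% were higher and 19.2% lower. VDAC1, an outer membrane channel gene, rose with a log2 fold change of 0.17 (edgeR adjusted p 6.28e-05). CYCS, the cytochrome c gene, fell from 531 ± 14.2 to 435 ± 14.2 CPM (SD of 3 libraries; edgeR adjusted p 8.44e-07). DFFA, the inhibitor of the nuclease that cuts DNA in apoptosis, fell from 139 ± 3.54 to 108 ± 1.85 CPM (SD of 3 libraries; edgeR adjusted p 2.21e-07). HTRA2, a mitochondrial protease, fell with a log2 fold change of -0.17 (edgeR adjusted p 0.0146), a call lost in the DESeq2 Wald test (adjusted p 0.0974) and in edgeR without control replicate 1 (0.050003), control replicate 2 (0.104), knockdown replicate 1 (0.0519) or knockdown replicate 2 (0.0759).

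Caspase inhibitors and death receptor genes included the largest changes of the 7 lists, those of BIRC3 and CASP10. Of 6 tested caspase inhibitor genes, 2 rose and 1 fell, with a median log2 fold change of 0.16. Among all tested genes 19.3% rose and 19.2% fell. BIRC3, which encodes cIAP2 and is a well known NF-kB target, rose 4.04-fold from 2.39 ± 0.576 to 9.65 ± 0.596 CPM (SD of 3 libraries; edgeR adjusted p 1.34e-08), and BIRC2, the gene of cIAP1, rose from 43.4 ± 2.01 to 53.9 ± 1.69 CPM (SD of 3 libraries; edgeR adjusted p 7.45e-05). BIRC5, which encodes survivin and is also a mitotic gene, fell from 163 ± 0.670 to 137 ± 3.94 CPM (SD of 3 libraries; edgeR adjusted p 1.45e-05).

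Of 11 tested death receptor pathway genes, 6 rose, 2 fell and 3 did not pass, with a median log2 fold change of 0.17. Among all tested genes 19.3% rose and 19.2% fell. FAS rose from 12.1 ± 1.30 to 18.6 ± 0.918 CPM (SD of 3 libraries; edgeR adjusted p 1.82e-05), and the TRAIL receptor gene TNFRSF10B from 74.2 ± 3.96 to 96.3 ± 2.03 CPM (SD of 3 libraries; edgeR adjusted p 2.04e-06). TNFRSF1A, the TNF receptor gene, had a log2 fold change of 0.27 (edgeR adjusted p 2.60e-05). CASP10 fell from 1.67 ± 0.379 to 0.389 ± 0.186 CPM (SD of 3 libraries, edgeR adjusted p 0.000193). That fall rests on few reads. Control replicates 1 to 3 had 16, 22 and 24 counts, and knockdown replicates 1 to 3 had 5, 10 and 4. TRADD fell from 9.28 ± 0.584 to 7.20 ± 0.950 CPM (SD of 3 libraries; edgeR adjusted p 0.0238), a call lost in the DESeq2 Wald test (adjusted p 0.154) and in edgeR without control replicate 1 (0.0668), control replicate 3 (0.0816) or knockdown replicate 3 (0.110).

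Among 19 genes of transcription factors known to act on BCL2 family genes, 8 were higher, 3 lower and 8 did not pass. Over all tested genes 19.3% were higher and 19.2% lower. The median log2 fold change of the 19 was 0.044. HIF1A (log2 fold change 0.34), RUNX3 (0.44) and MYC (0.27) were the 3 rises with the smallest p-values. ATF4, a stress factor known to act on PMAIP1, fell from 279 ± 2.51 to 231 ± 3.90 CPM (SD of 3 libraries; log2 fold change -0.27 ± 0.03 SE, edgeR adjusted p 1.12e-06), and E2F1 fell from 128 ± 6.30 to 108 ± 4.72 CPM (SD of 3 libraries; edgeR adjusted p 0.000210). TP73 had the third fall (log2 fold change -0.27, edgeR adjusted p 0.0400), lost in the DESeq2 Wald test (adjusted p 0.232), with limma on the deposited normalized values (0.0593), and in edgeR without control replicate 1 (0.167), control replicate 2 (0.147), or knockdown replicate 1 (0.0643), 2 (0.0575) or 3 (0.126). The 3 FOXO genes of the list, named after their values were seen because their products bind forkhead motifs, did not pass. FOXO3 had 67.0, 78.4 and 75.5 CPM in control replicates 1 to 3 and 72.0, 77.3 and 78.0 CPM in knockdown replicates 1 to 3 (log2 fold change 0.044, edgeR adjusted p 0.554). FOXO1 was at 23.2 ± 1.55 CPM in control libraries and 21.0 ± 0.777 CPM in knockdown libraries (SD of 3 libraries; log2 fold change -0.15, edgeR adjusted p 0.121). FOXO4 was at 8.87 ± 0.569 CPM in control libraries and 10.2 ± 1.17 CPM in knockdown libraries (SD of 3 libraries; log2 fold change 0.19, edgeR adjusted p 0.206). The groups overlapped for all 3.

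The last list held 24 kinases, ubiquitin ligases and binding proteins that act on BCL2 family proteins. Of these, 5 were higher, 4 lower and 15 did not pass, with a median log2 fold change of -0.021. Over all tested genes 38.5% passed, 19.3% higher and 19.2% lower. MAPK3, the ERK1 gene, fell from 42.6 ± 1.73 to 31.8 ± 0.232 CPM (SD of 3 libraries; edgeR adjusted p 5.25e-06). RPS6KA1, the gene of a kinase that phosphorylates BAD, and PIM2, another survival kinase gene, had log2 fold changes of 0.37 and 0.39. YWHAQ, the gene of a 14-3-3 protein, had one of -0.21 and PIM3 one of -0.25. The largest edgeR adjusted p of these 5 genes was 0.000118, that of PIM3.

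**Figure D5:**
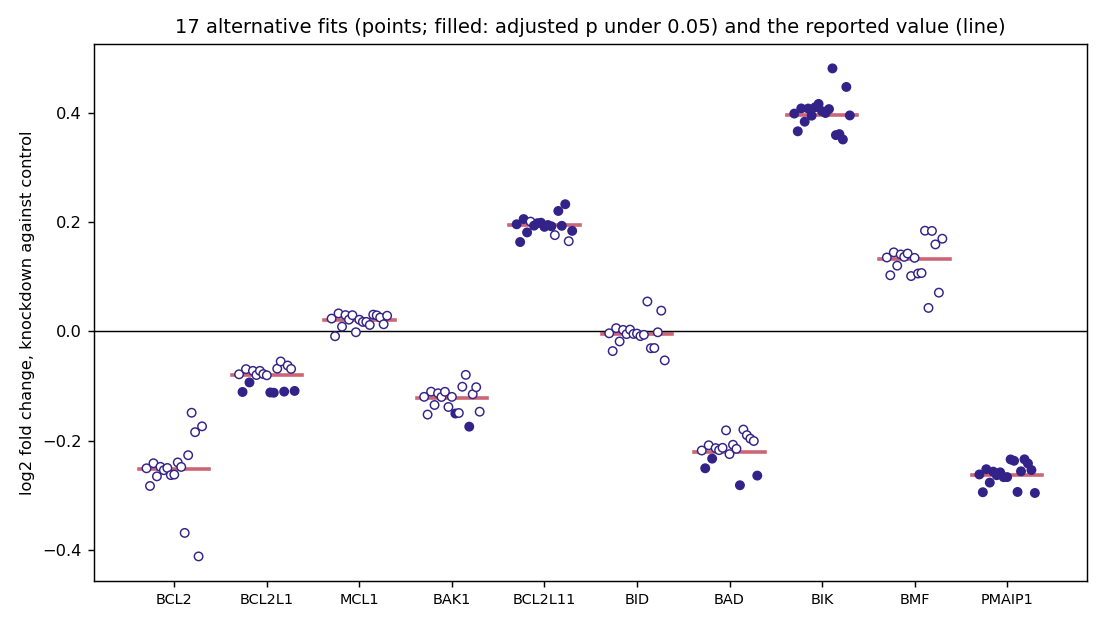
Log2 fold change of the 10 members (vertical axis) in 17 alternative fits (points, filled where the adjusted p was under 0.05) with the reported value as a line. Every point of BIK and PMAIP1 is filled, those of BCL2L11 are filled in all but 3 fits, and MCL1 and BID cross 0.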

How the data were processed

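RNA-seq was analysed from 3 control and 3 IRS2 knockdown libraries, grouped and numbered by their titles. The authors deposited whole-number counts per gene symbol and a second table, a normalized signal, which is those counts divided by 1 constant per library and lists the 16213 genes with at least 10 counts in all. Per the submitters' processing notes, STAR 2.6.1a, Salmon, DESeq2 and build hg19 were used; their roles, the annotation and the strand setting are not given in the sources used here.

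The deposited counts were tested with edgeR 4.0.16 in R 4.3.3 (TMM factors, filterByExpr, quasi-likelihood F-test, group as the only term, Benjamini-Hochberg over all tested genes, threshold 0.05). A standard error is the size of the log2 fold change over the root of its F statistic. An exact permutation test of 1 gene, 3 against 3, cannot give a two-sided p below 0.1. Alternatives were 2 other scalings, 2 other filters, DESeq2 1.42.0 (Wald), limma 3.58.1 (voom, and log2 of the deposited signal plus a pseudocount of 1), thinning to the smallest library, the replicate number as a block, a length and GC content correction with and without that block (95.8% of tested genes had a transcript), a threshold of 0.01 and leaving out each library. Scripts were tested on simulated data. Gene places, lengths and overlaps came from GENCODE version 44 on GRCh37.

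The members and lists were chosen with earlier results of these data known, and each list is described by counts and its median. Named were IRS2, all members, the tested further family genes, in each other list the 3 smallest p-values past the threshold in each direction, and the 3 nearest profiles of BIK and PMAIP1, the members with the smallest p in each direction. Markers, the FOXO genes and genes that overlap members were named beside these. Some genes that this rule takes are not reported here. No column of per-sample values was left unused.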

Additional observations from a re-analysis of the deposited data

How the results depend on the processing

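The 18 alternatives gave 180 values for the 10 members, of which 157 kept both direction and call, 12 were newly past the threshold, 4 were no longer past it and 7 changed sign. The sign changes were those of values near 0: MCL1 at -0.0087 with library size alone and -0.0014 after thinning, and BID at 0.0062 with no low-count filter, 0.0029 in the DESeq2 Wald test, 0.0034 in limma on the deposited values, 0.055 without control replicate 1 and 0.038 without knockdown replicate 2. Leaving out single libraries took BBC3 from -0.053 (without control replicate 1) to 0.384 (without control replicate 3). The number of members past the threshold was 5, with 3 lower, for library size alone, a minimum mean of 50 counts, and the length and GC correction, where 39.1%, 41% and 42.3% of all tested genes passed. With that correction and the replicate block, 2 were lower, where 20.3% of all tested genes were. In the DESeq2 Wald test 1 was higher, where 12.8% of all tested genes were. At a threshold of 0.01, 1 was higher too, where 1924 of all 13832 tested genes were. Leaving out each replicate gave 2 to 5 members, 1 to 2 higher and 1 to 3 lower. Over all tested genes these fits called 31% to 37.6%, 15.6% to 19% higher and 15.2% to 18.6% lower. The 5 came without control replicate 3 and without knockdown replicate 3, where 34.8% and 37.6% of all tested genes passed. The 2 came without knockdown replicate 2, where 31% did. Over all tested genes, the alternatives called 3604 to 5845 genes, and the DESeq2 Wald test called 1654 lower genes against 2653.

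In the lists, the number of lower genes of the execution list was 2 in place of 4 in the DESeq2 Wald test, at a threshold of 0.01, and without control replicate 1 or 2 or knockdown replicate 1 or 2. That of the death receptor list was 1 in place of 2 in the DESeq2 Wald test, at 0.01, with a minimum mean of 50 counts, and without control replicate 1 or 3 or knockdown replicate 3. The kinase list had 8 lower genes with library size alone and 7 with a minimum mean of 50 counts, against 4. Without a low-count filter, 5 of 16 listed further family genes were higher, against 3, and 6 of 7 listed caspase inhibitor genes passed, against 3. In that fit 15.1% of all tested genes were higher and 28.8% passed. After the length and GC correction 5 caspase inhibitor genes passed, with or without the replicate block, where 41% and 42.3% of all tested genes did. CASP10, HRK and BNIP3 averaged 13.5, 17.5 and 47.2 counts and were not tested with a minimum mean of 50 counts. At 0.01, TRADD (edgeR adjusted p 0.0238), HTRA2 (0.0146) and VDAC3 (0.0376) no longer passed. Of all tested genes, 19.2% were lower in the reported fit and 10.8% in the DESeq2 Wald test. With library size alone 23.1% were lower, and with a minimum mean of 50 counts 20.2%. Leaving out each library gave 15.2% to 18.6% lower. At 0.01, 1790 of all 13832 tested genes were lower. The cause of the other moves was not tested.

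The replicate numbers did not pair the libraries: deviations of same-numbered libraries had correlations of -0.077, -0.035 and -0.21. With the replicate block, 35.2% of all tested genes passed (4862 of 13832), and 3 of 10 members did, 2 higher and 1 lower, with adjusted p-values of 0.00329 for BIK, 0.0206 for BCL2L11 and 0.000597 for PMAIP1, and IRS2 had 2.66e-09. BCL2 and BMF, the members with the fewest counts, had the widest intervals.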
